A study of Homo sapiens with 9 samples.

Results

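The genes described here are the protein-coding genes of human chromosome 9 that were measured at a mean of at least 10 CPM (counts scaled to a common library size) in the control libraries of OVCA433, a long-established cell line from a human ovarian serous adenocarcinoma. There were 393 of them, with 97 on the short arm (9p) and 296 on the long arm (9q), among 9487 protein-coding genes at this level and 58676 genes in the table. Chromosome 9 held 402 genes at this level, and 10 genes were left out by name, of which 9 were at the level. The chromosome was selected on the measured values: its genes lay higher with hairpin #3 than with the control vector or hairpin #1, so every value of hairpin #3 against either group is a description. No p-value is given for it, and calls in these 2 contrasts are only counted beside their background. Messenger RNA was sequenced in 9 libraries, 3 from cells transduced with a control vector, 3 with shRNA #1 against MPZL3 and 3 with shRNA #3 against MPZL3, and each set of 3 carries the replicate letters A, B and C. All groups were cultured in the same medium after lentiviral transduction. The labels give the control genotype as WT, and the study calls the control of this line an empty vector in 1 place and a scrambled hairpin in another, so it is uncertain whether that vector expresses a hairpin. The study describes 3 biological replicates per condition, but neither the labels nor its methods say whether these were separate transductions, so the spread between libraries may leave out part of the variation.

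The library totals ranged from 16850854 to 23890191 counts, and the 393 genes held 732307 to 1011750 of them. MPZL3, a cell-surface protein of the immunoglobulin family and the target of both hairpins, had 322, 440 and 440 counts in the control libraries, 40, 39 and 42 with hairpin #1, and 33, 18 and 39 with hairpin #3. The 8 markers of ovarian serous epithelium summed to 10300 to 12300 CPM in control, 5220 to 6660 with hairpin #1 and 5160 to 5780 with hairpin #3. KRT7, KRT8, KRT18 and PAX8 were present in all 9 libraries and WT1 was at 0 in all 9. PAX8 went against the sum, at 82.3 to 115 CPM in control, 191 to 214 with hairpin #1 and 189 to 230 with hairpin #3. KRT8 and KRT18 were lower in every knockdown library than in every control library. KRT7 overlapped control with hairpin #1, at 2010 to 3300 CPM against 2620 to 4230. In the 6 knockdown libraries EPCAM was at 4.68 to 9.94 CPM against 376 to 420 in control, CDH1 below 0.4 against 270 to 281, and MUC16 at 0 against 2.09 to 4.11. The 5 markers of leukocytes and endothelium summed to 2.08 to 2.69 CPM in control, 4.44 to 5.7 with hairpin #1 and 4.83 to 5.98 with hairpin #3. CD34 was at 0.92 to 1.99 CPM in control and 3.18 to 5.11 with the hairpins, while PTPRC, CD68, PECAM1 and VWF were each under 1 CPM in every library. Both marker sums thus differed between control and each hairpin without overlap, and their part in the results was not tested.

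Genes keep a fixed order along a chromosome, and the centromere divides chromosome 9 into its arms, beside a long gene-poor block of heterochromatin. The RNA level of a single gene mostly follows its own promoter and the stability of its transcript. A median over many neighbouring genes instead shows what they have in common, and genes that lie far from that median are those that depart from it. Only RNA was measured in these libraries, with no DNA, and the sequencing carried no strand.

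The range of responses on the chromosome is framed by its extreme members, and the promoters of the lowest and the highest member of each arm with hairpin #3 are shown for that reason. They run from 250 bases before to 50 bases after the RefSeq start and are given 5′ to 3′ on GRCh38.p14. Capitals mark CAGGTG, or CACCTG on the other strand, an E-box sequence known to be bound by repressors of epithelial genes such as those of the SNAIL and ZEB families. CD274 (chr9:5450292-5450591, plus strand) was the lowest member of 9p and DNAJB5 (chr9:34990040-34990339, plus strand) the highest, while LCN2 (chr9:128149203-128149502, plus strand) was the lowest of 9q and COL5A1 (chr9:134641553-134641852, plus strand) the highest.
CD274: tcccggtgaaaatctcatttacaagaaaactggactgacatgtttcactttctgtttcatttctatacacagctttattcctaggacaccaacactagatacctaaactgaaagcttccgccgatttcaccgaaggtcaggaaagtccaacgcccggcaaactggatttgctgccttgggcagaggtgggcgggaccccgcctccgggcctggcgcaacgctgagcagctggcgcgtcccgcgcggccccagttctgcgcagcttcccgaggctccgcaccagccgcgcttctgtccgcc
DNAJB5: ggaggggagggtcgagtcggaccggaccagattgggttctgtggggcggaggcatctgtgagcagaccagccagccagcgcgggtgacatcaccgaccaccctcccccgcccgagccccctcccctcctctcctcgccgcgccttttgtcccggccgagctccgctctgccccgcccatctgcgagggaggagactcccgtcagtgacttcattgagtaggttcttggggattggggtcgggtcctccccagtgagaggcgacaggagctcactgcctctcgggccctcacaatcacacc
LCN2: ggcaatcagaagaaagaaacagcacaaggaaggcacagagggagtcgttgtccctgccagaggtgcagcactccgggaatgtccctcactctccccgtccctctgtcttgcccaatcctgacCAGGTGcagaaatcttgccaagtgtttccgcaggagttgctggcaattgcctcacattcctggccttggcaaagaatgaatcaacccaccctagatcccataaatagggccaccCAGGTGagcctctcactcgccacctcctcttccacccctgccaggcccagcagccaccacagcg
COL5A1: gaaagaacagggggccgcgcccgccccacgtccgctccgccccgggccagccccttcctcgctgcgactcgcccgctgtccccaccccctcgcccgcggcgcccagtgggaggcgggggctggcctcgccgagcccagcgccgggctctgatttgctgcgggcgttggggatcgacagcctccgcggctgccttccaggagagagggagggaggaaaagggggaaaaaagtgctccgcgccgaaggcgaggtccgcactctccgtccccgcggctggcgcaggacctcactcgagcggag
The LCN2 promoter held the E-box 2 times and the other three windows held it 0 times. It also differed in composition, with 6 CpG dinucleotides in its 300 bases against 22 in CD274, 21 in DNAJB5 and 36 in COL5A1.

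The E-box was not common among the members. Of the 393 genes, 322 had a promoter in the RefSeq table, and 51 of these (15.8%) held the sequence, next to 1246 of 7166 promoters (17.4%) of protein-coding genes on other chromosomes at the same level. Among the members that lay below control with hairpin #3, which are described further on, 11 of 38 promoters (28.9%) held it. Among those far above control it was 1 of 11 (9.09%). These are counts of letters in a fixed window, not of bound sites. Equally low genes of other chromosomes were not counted, so the 28.9% cannot be tied to chromosome 9. Any link of the sequence to the fold changes was not tested.

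With hairpin #3, the chromosome 9 genes lay together above control by about 20%. For each library, the shift was taken as the median over the 393 genes of log2 CPM minus the control mean, less the same median over 9085 protein-coding genes of the other chromosomes at the same level. The 3 hairpin #3 libraries A, B and C stood at 0.19, 0.28 and 0.31, which is 14.4%, 21.7% and 24.1% above control. Their mean was 0.26 ± 0.062 (SD, n = 3), or about 20%. The control libraries stood between -0.003 and 0.001 when each was compared with the other 2, and no hairpin #3 library overlapped them.
Library A lay the lowest of the 3 hairpin #3 libraries and B and C lay close to each other. In RNA from a whole culture, a change in the RNA of each cell and a change in the share of cells that carry it cannot be told apart.

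Hairpin #1 left the same genes close to control. Its libraries A, B and C stood at 0.062, 0.036 and 0.054, with a mean of 0.05 ± 0.013 (SD, n = 3), or 3.6%. All 3 lay above the control libraries. With the baseline taken over the 6 libraries of both groups, chosen after seeing the data so that both were centred alike, hairpin #1 exceeded control by 0.053 at p = 0.1 in the exact two-sided permutation test (adjusted 0.133 over 4 such tests), the smallest p that 3 libraries against 3 can give. This comparison shares its control libraries with hairpin #3 against control. Nor is the excess particular to chromosome 9, whose mean shift with hairpin #1 ranked 15 from the top among 23 chromosomes. Chromosomes 4, 8 and 20, which are part of the reference, stood at means of -0.38, -0.36 and -0.32 with hairpin #1. Measured from the hairpin #1 libraries instead, the hairpin #3 libraries stood at 0.16, 0.24 and 0.27, a mean of 0.23 ± 0.059 (SD, n = 3), or 16.9%.

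**Figure D1:**
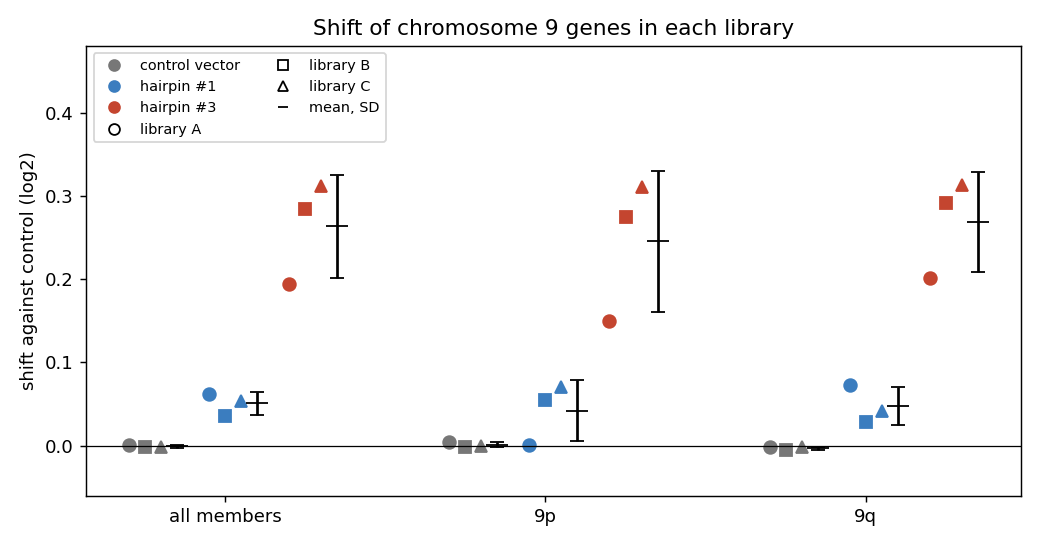
Shift of the 393 chromosome 9 genes, and of the 97 genes of 9p and the 296 of 9q, in each of the 9 libraries (log2, vertical axis), with the mean and SD of each group of 3. The hairpin #3 libraries lie between 0.15 and 0.31 in every region, above all hairpin #1 libraries, which lie between 0.001 and 0.073.

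The shift was carried by many genes with small differences. With hairpin #3, 295 of the 393 genes (75.1%) had a positive fitted fold change against control, against 44.7% of the 9085 reference genes. The median log2 fold change of the members was 0.23, with quartiles of 0.004 and 0.41, next to a median of -0.003 over all 15975 genes tested. The distance between the quartiles was 0.41 for the members and 0.46 for the reference genes. Against hairpin #1, 322 members (81.9%) were higher with hairpin #3, as were 44.7% of the reference genes and 48.3% of all tested genes. The members had quartiles of 0.065 and 0.33 and a median of 0.20, next to a median of -0.009 over all genes tested.

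Calls of single genes followed the same order. At an adjusted p of 0.05 or less in edgeR's quasi-likelihood test, 146 members (37.2%) were higher with hairpin #3 than with control, where 16.6% of all tested genes were, and 36 (9.16%) were lower, where 18.1% of all tested genes were. Of the 9085 reference genes at the members' level, 1261 were called higher and 1958 lower. Since the contrasts of hairpin #3 chose the chromosome, nothing is read from these counts or from those against hairpin #1. The same holds for the 193 members (49.1%) whose 3 hairpin #3 libraries all lay above all 3 control libraries, next to 23.1% of all tested genes, and for the 46 (11.7%) that all lay below, next to 24.9%. Few members were called with a change of at least 2-fold, namely 19 higher (4.83%, background 7.46%) and 15 lower (3.82%, background 7.83%).

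With hairpin #1, 72 members (18.3%) rose against control and 64 (16.3%) fell, next to 18.0% and 19.7% of all tested genes. All tested genes include genes below the members' level. Of the 9085 reference genes, which share that level, 1509 rose and 2084 fell. At least 2-fold changes were called for 16 members upward (4.07%, background 7.76%) and 21 downward (5.34%, background 8.55%). The median log2 fold change of the members was 0.008, next to 0.001 over all tested genes and -0.025 over the reference genes. Between the hairpins, 69 members (17.6%) were called higher with hairpin #3 and 2 (0.509%) lower, with backgrounds of 6.33% and 5.3%. Of the 9085 reference genes, 574 were higher and 543 lower. The count of 69 rose to 130 (33.1%, background 9.13%) without the 3 libraries of letter A. It dropped to 45 without hairpin #1 library B, 40 without its library C, 26 without hairpin #3 library B and 32 without its library C. The share of all tested genes was not taken in these fits with 1 library left out. The drop is therefore not read as particular to the members. With the 2-fold limit 3 members were higher (0.763%, background 2.22%) and 1 lower (0.254%, background 1.72%).

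Both arms were higher with hairpin #3. On 9p the libraries A, B and C stood at 0.15, 0.28 and 0.31, a mean of 0.24 ± 0.085 (SD, n = 3), or 18.5%. On 9q they stood at 0.20, 0.29 and 0.31, a mean of 0.27 ± 0.06 (SD, n = 3), or 20.5%. The arms of library A were the farthest apart and those of library C met within 0.002. With hairpin #1, 9p stood at 0.001, 0.055 and 0.07, a mean of 0.042 ± 0.036 (SD, n = 3), and 9q at 0.073, 0.029 and 0.042, a mean of 0.048 ± 0.023 (SD, n = 3). With the baseline over both groups, 9p exceeded control by 0.041 and 9q by 0.059, each at an exact permutation p of 0.1 (adjusted 0.133). As for the whole chromosome, these small excesses are relative to a reference that includes the low chromosomes 4, 8 and 20.

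The 9q shift exceeded that of 9p by 0.023 ± 0.025 with hairpin #3, by 0.006 ± 0.057 with hairpin #1 and by -0.004 ± 0.003 in the control libraries (SD, n = 3 each). Hairpin #3 thus differed from control by 0.027 and from hairpin #1 by 0.017, given without a test. Hairpin #1 differed from control by 0.01, and by 0.018 with the baseline over both groups (exact permutation p = 0.7, adjusted 0.7), so no difference between the arms was detected there with 3 libraries a group.

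Along the chromosome, the shift with hairpin #3 ran through nearly every stretch. The members were placed in 40 consecutive windows of up to 10 genes, 10 windows on 9p and 30 on 9q, and all 3 hairpin #3 libraries were above 0 in 36 of them. They lay above all 3 control libraries in 33 windows (10 on 9p and 23 on 9q) and below them in 0. Against hairpin #1 all 3 libraries lay above in 29 windows and below in 0. Such counts were not taken for windows of other chromosomes, and the choice of this chromosome implies high ones. The window means of hairpin #3 ran from 0.011 to 0.64, while those of hairpin #1 ran from -0.24 to 0.36, with 13 windows above and 2 below all control libraries. A single control library varied between -0.16 and 0.16 in these windows.

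**Figure D2:**
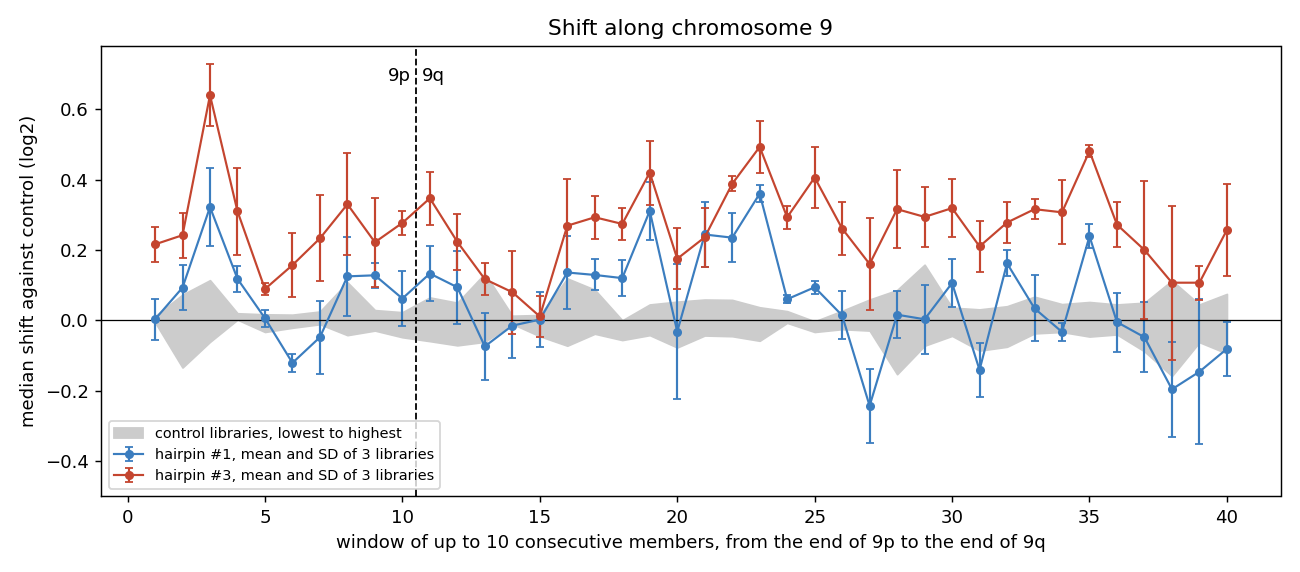
Median shift against control (log2) of 40 windows of up to 10 consecutive members, in order from the end of 9p to the end of 9q, for hairpin #1 and hairpin #3 (mean and SD of 3 libraries), with the range of the control libraries in grey. The hairpin #3 line stays above 0 from end to end, with its lowest mean at 0.011 and its highest at 0.64, and the hairpin #1 line crosses 0.

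The highest window on 9p ran from KDM4C to CNTLN (9:6757641-17503923) and stood at 0.64 ± 0.088 with hairpin #3. It includes NFIB, and with hairpin #1 it stood at 0.32 ± 0.11. On 9q, RGS3 to CDK5RAP2 stood at 0.49 ± 0.074 with hairpin #3 and 0.36 ± 0.024 with hairpin #1, and SURF4 to PPP1R26 at 0.48 ± 0.016 and 0.24 ± 0.034. All 3 windows also lay above control with hairpin #1, a comparison with the same control libraries.

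The flattest stretch lay on 9q. From AUH to WNK2 (9:91213815-93320572) the hairpin #3 libraries stood at -0.038, -0.004 and 0.075, a mean of 0.011 ± 0.058, and its neighbour from ISCA1 to SEMA4D at 0.079, 0.20 and -0.038. These 2 adjoining windows, with INPP5E to TRAF2 and FBXW5 to ANAPC2 near the end of 9q, were the 4 in which the 3 libraries were not all above 0. In FBXW5 to ANAPC2 library A stood at -0.14 and libraries B and C at 0.17 and 0.29. On 9p the lowest window was CAAP1 to DNAJA1 (9:26840685-33039907), at 0.089 ± 0.018. From LMX1B to TOR2A hairpin #1 stood at -0.24 ± 0.11 and hairpin #3 at 0.16 ± 0.13. The widest stretch without a member, 27.3 Mb from ALDH1B1 to CBWD5 around the centromere, has no window of its own, and the windows on either side of it stood at 0.28 ± 0.035 and 0.35 ± 0.076 with hairpin #3.

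Among the 23 chromosomes measured in the same way, chromosome 9 had the highest mean shift with hairpin #3, as its choice implies, and ranked 15 from the top with hairpin #1. Chromosome 12 (509 genes) came next and lay within the spread of the libraries, at 0.23, 0.26 and 0.28 with hairpin #3, so that it ranked above chromosome 9 in library A and below it in B and C. Chromosome 12 is part of the reference. So are chromosomes 8, 11 and 5, the lowest with hairpin #3 at means of -0.22, -0.17 and -0.11.

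**Figure D3:**
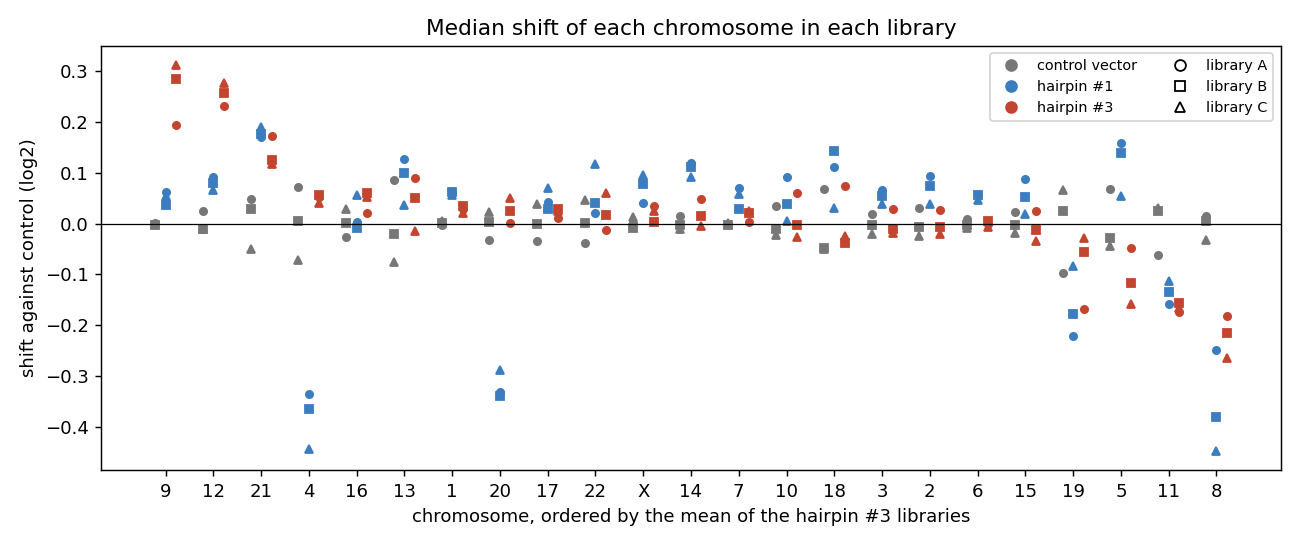
Median shift against control (log2) of the protein-coding genes of each of 23 chromosomes in each of the 9 libraries, ordered by the mean of the hairpin #3 libraries. Chromosomes 9 and 12 are the highest with hairpin #3, at means of 0.26 and 0.25, and chromosome 9 lies at 0.05 with hairpin #1. Chromosome 21 follows with hairpin #3 at 0.14, and chromosomes 8, 11 and 5 are the lowest, at -0.22, -0.17 and -0.11.

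By role, the members were sorted into lists whose median log2 fold changes with hairpin #3 over control ran from 0.12 to 0.49. The lists below were drawn up with results of these data known, so each is given by its counts and its median, next to the median of -0.003 and the calls of 16.6% higher and 18.1% lower over all tested genes with hairpin #3. Over all 393 members these calls were 37.2% and 9.16%, and no list is read as standing apart from them. All 7 ribosomal proteins were positive with hairpin #3, with a median log2 fold change of 0.25 and 1 call upward (14.3%), against a median of 0.008 with hairpin #1. RPS6, a protein of the small ribosomal subunit, stood at 1179, 1259 and 1303 CPM in the control libraries, 1227, 1196 and 1338 with hairpin #1 and 1309, 1505 and 1621 with hairpin #3. Its hairpin #3 libraries lay above control without overlap, though library A by little, and the fitted log2 difference was 0.25 ± 0.11 (SE). RPL7A, of the large subunit, had a difference of 0.37 ± 0.14 (SE), with 1 hairpin #3 library inside the range of control. Ribosomal protein genes have many processed copies in the genome, so the split of their reads is uncertain.

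Of 15 genes for mitochondrial proteins, 13 were positive with hairpin #3, with a median of 0.23 and 4 calls upward (26.7%). STOML2, a scaffold of the inner membrane, differed by 0.26 ± 0.091 (SE), and FPGS, which adds the glutamate tail that keeps folates in the cell, by 0.35 ± 0.096 (SE). ALDH1B1, a mitochondrial aldehyde dehydrogenase and the last member of 9p, was on the other side at -0.24 ± 0.095 (SE). Of 25 genes of protein folding and turnover, 12 (48%) were called higher and 1 (4%) lower, with a median of 0.26. VCP, the ATPase that extracts ubiquitinated proteins, stood at 619, 613 and 641 CPM in control, 666, 613 and 642 with hairpin #1 and 751, 783 and 837 with hairpin #3. Its hairpin #3 libraries lay clear of both other groups, at 0.34 ± 0.092 (SE) over control. HSPA5, the main chaperone of the endoplasmic reticulum, overlapped control at -0.23 ± 0.19 (SE).

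Of 32 regulators of transcription and chromatin, 28 were positive with hairpin #3, 18 (56.2%) were called higher and 1 (KLF4, 3.12%) lower, with a median of 0.35. Against hairpin #1 all 32 were positive, with a median of 0.32 and 11 calls upward (background 6.33%), and with hairpin #1 against control the median was 0.068. SET, a histone chaperone, stood at 1005, 882 and 825 CPM in control, 1152, 916 and 1018 with hairpin #1 and 1255, 1152 and 1063 with hairpin #3. The hairpin #3 libraries did not overlap control, at 0.36 ± 0.12 (SE). HNRNPK, an RNA-binding protein, overlapped at 0.15 ± 0.11 (SE). The genes of growth control, kinases and cancer had a lower median of 0.16 over 28 genes, with 11 calls upward (39.3%) and 2 downward (7.14%), and included ANP32B, another histone chaperone (0.44 ± 0.11, SE), and RAD23B, which takes part in DNA repair (-0.08 ± 0.11, SE).

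Cytoskeleton and adhesion genes had a median of 0.22 over 24 members, with 9 calls upward (37.5%) and 3 downward (12.5%). The most abundant of them, TUBB4B, a beta tubulin, and SPTAN1, a spectrin, overlapped control at -0.006 ± 0.12 (SE) and -0.016 ± 0.094 (SE), and the reads of TUBB4B may be shared with other tubulins and those of SPTAN1 with WDR34, which it overlaps. Metabolism and transport had the lowest median of the lists, 0.12 over 25 members with 9 calls upward (36.0%) and 3 downward (12%). UGCG, which makes glucosylceramide, stood at 316, 349 and 370 CPM in control, 279, 404 and 320 with hairpin #1 and 412, 517 and 582 with hairpin #3. SURF4, a cargo receptor of the early secretory path, stood at 359, 360 and 383 CPM in control, 446, 438 and 447 with hairpin #1 and 480, 488 and 496 with hairpin #3. Hairpin #3 lay above control without overlap in both genes, and above hairpin #1 as well.

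The matrix and secreted proteins included members far above and far below control. Their 12 members had a median of 0.49 with hairpin #3, with 6 calls upward (50%) and 3 downward (25%), and of 0.51 with hairpin #1, with 6 calls upward and 3 downward, where the backgrounds were 18.0% and 19.7%. The list contains both the highest and the lowest member of the whole chromosome, COL5A1 and LCN2. B4GALT1, a Golgi galactosyltransferase, stood at 187, 201 and 244 CPM in control and 150, 268 and 189 with hairpin #1, but at 127, 142 and 147 with hairpin #3. It was the one of the 3 lower genes that overlapped control with hairpin #1 (0.60 log2 lower with hairpin #3, SE 0.17). The 226 members in no list had a median of 0.21, with 77 calls upward (34.1%) and 23 downward (10.2%).

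Genes at the typical shift show its size against the spread. PUM3, an RNA-binding protein of the nucleolus and near the 9p median, stood at 69.1, 69.2 and 55.5 CPM in control, 66.4, 56.5 and 60.6 with hairpin #1 and 74.3, 76.2 and 69.9 with hairpin #3. TMEM245, near the 9q median, stood at 171, 155 and 150 CPM in control, 173, 165 and 129 with hairpin #1 and 200.0, 184 and 175 with hairpin #3. In both genes the hairpin #3 libraries lay above all others, by less than the range of the control libraries. TESK1, a kinase of the cytoskeleton and also near the 9p median, fell with hairpin #1 (log2 -0.30 ± 0.099 SE, edgeR adjusted p = 0.028). That call was lost in 7 of 17 alternatives, and the gene was picked on hairpin #3 against the same control libraries. With hairpin #3, TESK1 was 0.18 ± 0.099 (SE) higher than control. HABP4, near the 9q median and overlapping CDC14B in position, overlapped control with hairpin #3 at 0.23 ± 0.12 (SE).

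The outermost members of the arms did not all lie on one side of control. CBWD1, the first on 9p (9:121038-179147), differed by 0.063 ± 0.11 (SE) with hairpin #3, and CBWD5, the first on 9q, by 0.043 ± 0.15 (SE). The CBWD genes are close copies of each other, so the assignment of their reads is uncertain. EHMT1, a histone methyltransferase and the last on 9q (9:137618963-137870016), differed by 0.16 ± 0.091 (SE) and overlapped control. ALDH1B1, the last on 9p and given above at -0.24, was below control in all 3 hairpin #3 libraries. At the limit of 10 CPM, the genes just inside, RFX3 (10.06 CPM) and DNAJC25 (10.19 CPM), had log2 fold changes of 0.41 and 0.64 with hairpin #3, and those just outside, ZBTB6 (9.57 CPM) and KIF12 (9.51 CPM), had 0.77 and -0.82.

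A minority of members lay against the shift. In 46 genes (11.7%, next to 24.9% of all tested genes), 15 on 9p and 31 on 9q, all 3 hairpin #3 libraries were below all 3 control libraries. In 14 of the 46 the fitted level was at least 2-fold lower. The 46 genes were scattered: only PLPP6 with CDC37L1, IFT74 with MOB3B, and PTGES2 with LCN2 were neighbours in the order of the members. Over the 46 genes the median log2 fold change was -0.62 with hairpin #3 and -0.74 with hairpin #1, each against the same control libraries, and 0.13 for hairpin #3 over hairpin #1. Of the 393 members, 109 overlapped another gene with at least 100 counts, including 14 of these 46, and without strand their reads could not be separated.

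**Figure D4:**
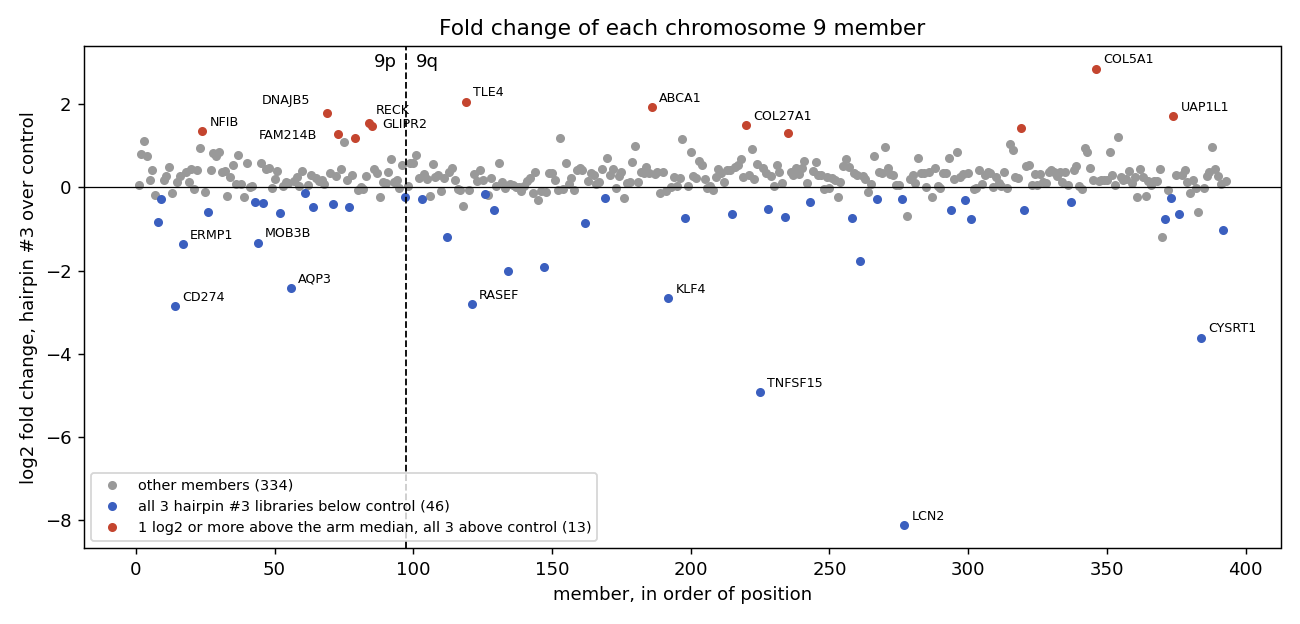
Fitted log2 fold change of hairpin #3 over control (vertical axis) for the 393 members in order of position, with 46 genes below control in all 3 libraries in blue and 13 genes at least 1 log2 above their arm's median in red. The blue genes are spread over both arms, and the lowest, LCN2, lies at -8.12.

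The lowest members included a secreted protein and immune ligands. LCN2, the secreted lipocalin that binds iron carriers of bacteria (9:128149071-128153455), stood at 78.5, 305 and 283 CPM in control, 0.0467, 0.763 and 0.429 with hairpin #1 and 0.706, 0.823 and 0.829 with hairpin #3. Control library A was well below B and C, and even so the groups were far apart. The log2 fold change was -8.12 ± 0.57 (SE) with hairpin #3 and -9.08 ± 0.61 (SE) with hairpin #1. The lowest and highest members were picked on hairpin #3 against these control libraries, in which each member also had to reach 10 CPM. For that reason no p-value is given for hairpin #1 in them. The hairpin #1 library A rests on 1 count. The LCN2 promoter is the one printed above with the E-box 2 times, while that of CD274, the lowest member of 9p, held it 0 times. A link to the change was not tested.

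TNFSF15, a ligand of the tumour necrosis factor family, stood at 10.0, 10.8 and 11.8 CPM in control, 0.234, 0.254 and 0.472 with hairpin #1 and 0.353, 0.384 and 0.322 with hairpin #3. CD274, which encodes PD-L1, the ligand of the checkpoint receptor PD-1 (9:5450503-5470566), stood at 54.1, 38.7 and 38.5 CPM in control, 6.31, 3.77 and 4.50 with hairpin #1 and 8.30, 4.61 and 5.25 with hairpin #3. In both genes the knockdown groups overlapped each other and lay well below control. Hairpin #3 stood at -4.92 ± 0.26 (SE) and -2.86 ± 0.23 (SE), and hairpin #1 at -5.03 ± 0.26 (SE) and -3.17 ± 0.24 (SE). PDCD1LG2, the gene of the other PD-1 ligand and a near neighbour of CD274, differed by 0.12 on the log2 scale with hairpin #3 and overlapped control.

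KLF4, a transcription factor of epithelial differentiation (9:107484852-107490482), stood at 25.4, 30.3 and 22.6 CPM in control, 2.85, 1.73 and 3.73 with hairpin #1 and 3.24, 4.33 and 4.74 with hairpin #3. AQP3, a channel for water and glycerol, stood at 9.59, 9.61 and 11.4 CPM in control, 3.60, 2.19 and 2.87 with hairpin #1 and 2.06, 1.70 and 1.98 with hairpin #3. Both were far below control with each hairpin, but in KLF4 the hairpin groups overlapped each other, while in AQP3 each hairpin #3 library was below each hairpin #1 library. RASEF, a member of the Rab GTPase family, and CYSRT1 stood at -2.81 ± 0.33 (SE) and -3.61 ± 0.23 (SE) with hairpin #3, and at -3.56 ± 0.34 (SE) and -4.31 ± 0.24 (SE) with hairpin #1.

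The rest of the lowest group on 9p lay nearer to control. ERMP1, a metallopeptidase of the endoplasmic reticulum, stood at 86.2, 83.5 and 86.9 CPM in control, 39.4, 38.0 and 34.3 with hairpin #1 and 35.1, 33.0 and 31.7 with hairpin #3. It overlaps RIC1, whose reads it may share. MOB3B, of a family of kinase activators, stood at -1.32 ± 0.17 (SE) with hairpin #3 and -1.73 ± 0.18 (SE) with hairpin #1, and PLPP6, a lipid phosphatase, at -0.82 ± 0.19 (SE) and -0.82 ± 0.18 (SE). PLPP6 overlaps SPATA6L, and MOB3B overlaps a non-coding gene.

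**Figure D5:**
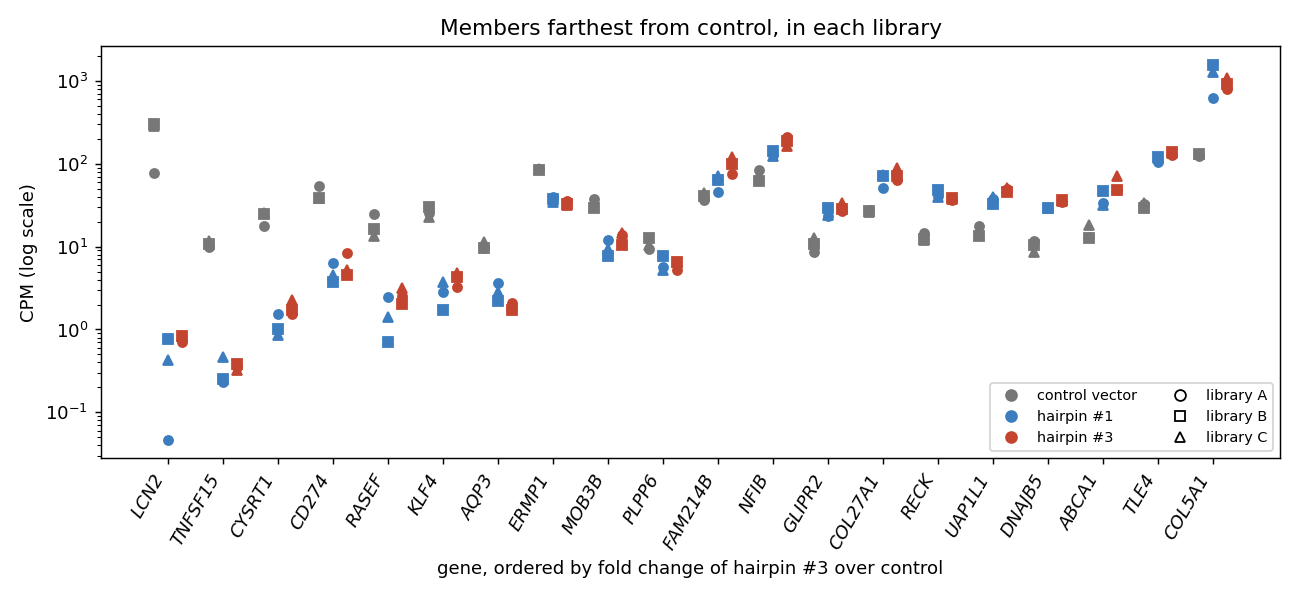
CPM (log scale) of the 5 lowest and 5 highest members of each arm in the 9 libraries, ordered by the fold change of hairpin #3 over control. The genes were picked among members whose 3 hairpin #3 libraries are separate from the 3 control libraries, so that separation follows from the choice. The hairpin #1 libraries lie on the same side of control, set against the same control libraries that entered the choice.

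Another 13 members, 6 on 9p and 7 on 9q, lay at least 1 log2 above the median of their arm with all 3 hairpin #3 libraries above control. The share of all tested genes under this rule was not taken. By the 2-fold call, which is another rule, 4.83% of the members and 7.46% of all tested genes were higher. All tested genes include genes below the members' level, so how frequent such genes were here is not judged. The median log2 fold change of the 13 was 1.49 with hairpin #3 and 1.29 with hairpin #1, against the same control libraries, and 0.28 for hairpin #3 over hairpin #1. The 13 were NFIB, DNAJB5, FAM214B, TLN1, RECK and GLIPR2 on 9p and TLE4, ABCA1, COL27A1, STOM, ABL1, COL5A1 and UAP1L1 on 9q.

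Of these genes, COL5A1, COL27A1 and RECK belong to the matrix and its remodelling, and no theme is read from them. COL5A1, the alpha chain of type V collagen (9:134641774-134844843), stood at 126, 132 and 130 CPM in control, 619, 1572 and 1271 with hairpin #1 and 799, 909 and 1087 with hairpin #3. COL27A1, a fibrillar collagen, stood at 27.4, 26.6 and 25.9 CPM in control, 50.5, 71.6 and 73.1 with hairpin #1 and 63.2, 72.0 and 89.1 with hairpin #3. RECK, a membrane-bound inhibitor of matrix metalloproteinases, stood at 14.5, 12.2 and 12.1 CPM in control, 40.9, 48.1 and 39.8 with hairpin #1 and 36.8, 38.5 and 37.6 with hairpin #3. All 3 genes lay far above control with both hairpins. The hairpin groups overlapped each other in both collagens, and RECK was higher in each hairpin #1 library than in each hairpin #3 library. With hairpin #1 their log2 fold changes were 3.16 ± 0.27, 1.29 ± 0.15 and 1.73 ± 0.12 (SE). With hairpin #3 they were 2.85 ± 0.26, 1.49 ± 0.15 and 1.54 ± 0.12 (SE).

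Other high members were regulators and transporters. TLE4, a corepressor of the Groucho family, stood at 32.6, 29.1 and 33.8 CPM in control, 105, 122 and 117 with hairpin #1 and 126, 139 and 135 with hairpin #3. NFIB, a transcription factor of the nuclear factor I family (9:14081843-14398983), stood at 83.7, 62.6 and 73.1 CPM in control, 128, 142 and 125 with hairpin #1 and 210, 186 and 165 with hairpin #3. ABCA1, which exports cholesterol, stood at 13.0, 12.7 and 18.5 CPM in control, 33.5, 46.6 and 31.9 with hairpin #1 and 48.3, 48.5 and 70.4 with hairpin #3. In all 3 genes each hairpin #3 library was above each hairpin #1 library, and each of those above control. DNAJB5, a co-chaperone of the Hsp40 family, stood at 11.8, 10.5 and 8.70 CPM in control, 29.3, 28.95 and 29.2 with hairpin #1 and 34.5, 37.0 and 35.4 with hairpin #3, the same order. The log2 fold changes of GLIPR2, FAM214B and UAP1L1 were 1.48, 1.29 and 1.72 with hairpin #3 and 1.27, 0.56 and 1.31 with hairpin #1.

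The 3 members called at least 2-fold higher with hairpin #3 than with hairpin #1 were WNK2, LRRC8A and GDA, and the 2 called lower at any fold were PTGR1 and KANK1. These 5 genes were chosen after their values were seen. WNK2, a kinase of ion transport, stood at 18.6, 18.4 and 19.4 CPM in control, 0.981, 0.763 and 0.472 with hairpin #1 and 4.24, 5.43 and 5.20 with hairpin #3, below control with both but 2.75 ± 0.23 (SE) on the log2 scale apart between them. LRRC8A, a subunit of volume-regulated anion channels, stood at 141, 158 and 148 CPM in control, 61.8, 80.1 and 78.9 with hairpin #1 and 161, 186 and 211 with hairpin #3, on opposite sides of control. Its reads may be shared with CCBL1, and those of PTGR1 with ZNF483, which they overlap. GDA, a guanine deaminase, was 1.69 ± 0.33 (SE) higher with hairpin #3 than with hairpin #1 and overlapped control with hairpin #3. The opposite order was called for PTGR1, a prostaglandin reductase, at -1.25 ± 0.20 (SE), and for KANK1, an adaptor of the cell cortex, at -0.68 ± 0.18 (SE). Both rose with hairpin #1 against control, by 1.47 ± 0.20 and 1.49 ± 0.18 (SE). No p-value is given for these, since the genes were chosen on hairpin #1 values.

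Sequence composition and level were compared with the fold changes. The median GC content of the members' transcripts was 49.2% against 47.7% for the reference genes, with 44.5% on 9p and 50.7% on 9q. Their median exon length was 4740 bases against 5401. Across the 393 members, which are not independent and share their libraries, the fold change with hairpin #3 had a Spearman rho of -0.001 with GC content, 0.098 with exon length and 0.024 with control level. When trends on GC content and length were removed within each library, an alternative chosen after seeing the data, the hairpin #3 libraries stood at 0.23, 0.31 and 0.32 and the hairpin #1 libraries at 0.089, 0.066 and 0.055.

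Genes of chromosome 9 outside the rule on level or type were read in the same libraries. Over 100 protein-coding genes at 1 to 10 CPM the hairpin #3 libraries stood at 0.042, 0.21 and 0.20, a mean of 0.15 ± 0.094 (SD, n = 3), and the hairpin #1 libraries at -0.18, -0.16 and -0.18. Over 70 genes of other types at 1 CPM or more the hairpin #3 libraries stood at 0.21, 0.17 and 0.18, a mean of 0.19 ± 0.019 (SD, n = 3), and the hairpin #1 libraries at 0.004, -0.036 and -0.015. In both sets all 3 hairpin #3 libraries lay above all 3 control libraries, which ranged from -0.018 to 0.039.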

How the data were processed

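Poly(A) RNA was sequenced from non-directional libraries. The submitters' processing notes name HISAT2 2.0.5, featureCounts 1.5.0-p3 and hg38. The authors deposited raw counts per gene, with no normalization. Positions are those of the count table: the 393 genes were on chromosome 9 in GENCODE 29 (GRCh38), 366 with the same start and end. Arms were split at 45 Mb.

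From the deposited counts, genes passing filterByExpr (minimum count 10, minimum total count 15; 15975 genes) were fitted in edgeR 4.0.16 (R 4.3.3) with TMM factors, 3 groups over 9 libraries and quasi-likelihood tests, with Benjamini-Hochberg adjustment over all tested genes. The biological coefficient of variation was 13.06%. CPM were scaled with TMM factors, and log2 CPM used a prior count of 2. SE derives from the F statistic. All 393 members passed the filter. Shifts of hairpin #1 were compared with control by exact permutation of libraries centred on the mean of both groups. The edgeR fit and the shift were tested on simulated data. The knockdown arms were not pooled.

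The named genes were, per arm, the 5 lowest and 5 highest members whose hairpin #3 and control libraries did not overlap, the 2 nearest the median and the first and last, and in all the 2 most abundant of each list, the 2 on each side of 10 CPM, and MPZL3. Examples outside this rule were chosen after their values were seen. The members, lists and named-gene rule were chosen with earlier results of these data known.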

Additional observations from a re-analysis of the deposited data

How the results depend on the processing

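Each shift of chromosome 9, 9p and 9q was positive under every alternative run (DESeq2 size factors, library totals, all genes of other chromosomes as reference, control levels of 5 and 30 CPM, a level over all libraries, a trimmed mean, a prior count of 0.5, GC and length trends, letter A left out, and each library left out). Leaving out 1 library gave 0.24 to 0.30 for hairpin #3 over control and 0.20 to 0.26 over hairpin #1. With GC and length trends removed the hairpin #1 shifts were 0.07 for the chromosome and 0.076 for 9q. The 9q minus 9p difference for hairpin #3 over control was -0.002 at 30 CPM. Over hairpin #1 it was 0.043 at 5 CPM, 0.000 to 0.05 with 1 library left out, -0.014 with a replicate block and -0.023 with the baseline over both groups.

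The main fit and the permutation tests did not take the letters as pairing, and the labels do not say what they stand for. Yet same-letter libraries correlated at 0.037 to 0.36 and others at -0.32 to 0.13. In 15 of 18 pairings of a library with another group the best match carried its own letter. Libraries of the same letter may thus share part of their variation, which the main fit leaves in the spread. The replicate block gave 158 members higher (background 12.2%) and 9 lower (10.9%) between the hairpins, and 195 higher (21.9%) with hairpin #3 over control.

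Between the hairpins, 130 were higher (background 9.13%) and 5 lower (7.69%) without the 3 letter A libraries, 4 lower with no filter and 6 with the DESeq2 Wald test. With 1 library left out 26 to 72 were higher and 1 to 6 lower. Shares of all tested genes were not taken with no filter, with the Wald test or with 1 library left out. The 2-fold limit left 16 higher and 21 lower with hairpin #1, 19 and 15 with hairpin #3, and 3 and 1 between the hairpins. Members below control numbered 46 (11.7%, next to 24.9% of all tested genes), and 51 to 61 with 1 library left out. With fewer libraries any gene separates more easily, and the share of all tested genes was not taken there.

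Of the alternatives for named genes, 1570 kept their side of the threshold, 30 lost a call, 32 gained one and 0 reversed. The call of TESK1 with hairpin #1 was lost in 7 of 17 alternatives. With 3 libraries a group, no exact test here can go below 0.1.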
